A study of Mus musculus with 24 samples.

Results

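The comparison set the 2 wild-type (WT) libraries of day 4 embryoid bodies against the 2 WT libraries of day 0 embryonic stem cells, chosen by their titles and read in expected counts. They are 4 of the 10 RNA libraries and of the 24 samples of the series. Both groups came from the mouse embryonic stem cell line E14Tg2a.IV with the genotype Wild type, and no allele or agent is named for either. Day 4 samples were embryoid bodies, the aggregates in which stem cells differentiate in suspension, and day 0 samples were the same line in the pluripotent state. Whether replicates were grown separately is not stated in the labels, which name 1 line. A p-value here reflects how far libraries of a group lay apart, over all 5 groups of the fit, and that spread may be technical. The labels describe the medium, free of the self-renewal factor LIF, for the chromatin samples only. The 6 other RNA libraries, from day 4 embryoid bodies lacking Smad3, Smad2 or both (Smad2/3 double knockout), entered the fit to estimate the spread. All 19470 genes that passed the filter, of 53379 in the tables, are described here. The 4 libraries held 40950959 to 42573015 expected counts, and levels are given in counts scaled to library size (CPM).

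Mouse embryonic stem cells resemble the epiblast before implantation, when its cells can still form every tissue of the body. Once they aggregate without self-renewal signals, cells pass through a state like the epiblast after implantation and then form streak-like mesoderm and endoderm, while an outer layer resembles the visceral endoderm that feeds the embryo. Known changes along the way include a switch of adhesion and guidance receptors, new DNA methylation at germ cell genes and a different use of nutrients.

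The labels were checked against their markers. All 12 markers of undifferentiated stem cells were called lower at day 4, and all 12 markers expected in embryoid bodies, of the post-implantation epiblast, germ layers and endoderm including the visceral layer, were called higher. Zfp42, the REX1 gene of naive cells, had 60.5 and 58.8 CPM at day 4, against 480.1 and 492 CPM at day 0 (log2 fold change -3.03). Cubn, an endocytic receptor of the visceral endoderm, had 334 and 266 CPM at day 4, against 0.478 and 0.658 CPM at day 0 (log2 fold change 9.03, and 7.13 with the offset). Markers of other cell types were called in both directions, and their part in the results was not tested. Of 13 fibroblast markers 2 were called higher and 3 lower, their summed level being 38.0 and 69.1 CPM at day 4, against 50.2 and 62.8 CPM at day 0, with 1 marker at 0 at day 4 and 2 at day 0. Of 13 trophoblast markers 4 were called higher and 4 lower, with a sum of 236 and 425 CPM at day 4, against 232 and 217 CPM at day 0, and 2 were at 0 at day 4 and 3 at day 0. Of 10 blood and endothelial markers 3 were called higher and 3 lower (36.7 and 36.5 CPM at day 4, against 81.7 and 95.1 CPM at day 0), with 3 of its 13 listed members at 0 at day 4 and 2 at day 0. In bulk RNA, fewer cells of a type and less RNA per cell cannot be told apart.

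Genes that differed between the days were found in every class examined. Of the 19470 genes tested, 10139 (52.1%) were called at an adjusted p under 0.05 by edgeR's quasi-likelihood test, 5622 higher (28.9%) and 4517 lower (23.2%). Without day 0 replicate 1 the fit called 6504 genes, 3721 higher and 2783 lower, and the counts of 21 of the 63 gene lists described below moved by more than 1.5 times. The median log2 fold change was 0.10, with quartiles of -0.86 and 1.10. The split depended on the scale: by library totals 67.6% of calls were higher, on log2(TPM + 1) 82.7% and on centred log2(TPM + 1) 39.2%, against 55.4% with TMM factors, and the first 3 of these scales placed the median of all genes at 0.38, 0.63 and -0.20. More than 4-fold, 2042 genes were called higher (10.5%) and 1352 lower (6.94%), and more than 32-fold 350 higher and 108 lower. The libraries of the groups did not overlap for 14851 genes (76.3%).

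**Figure D1:**
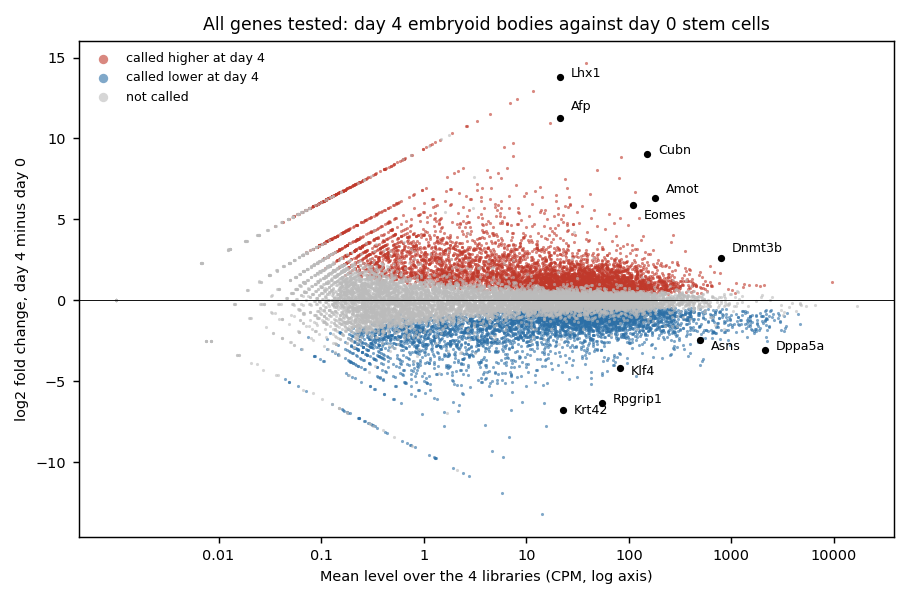
Each point is 1 of the 19470 genes tested, with its mean level over the 4 libraries in CPM (log axis) and its log2 fold change, day 4 minus day 0. Red points were called higher (5622), blue points lower (4517) and grey points neither; the diagonal lines of points are genes with few or no counts in 1 group, whose fitted fold change depends on the prior count.

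Transcript length and base composition moved with the comparison. Among protein-coding genes, cut into 5 equal classes by length, the class with the longest transcripts had a median log2 fold change of 1.12, with 65.4% called higher and 4.75% lower, and the shortest class had -1.04, with 5.61% higher and 58.5% lower. The trend was present between the replicates numbered 1 (1.04 in the longest class and -1.09 in the shortest) and between those numbered 2 (0.83 and -0.65). The length averaged over counts was 2937 and 2788 bases at day 4, against 1905 and 2107 bases at day 0. The lowest of 5 GC classes had a median of 0.73 and the highest -0.53, but here the day 4 libraries also differed from each other: replicate 1 over replicate 2 was 0.48 in the lowest class and -0.90 in the highest, while the day 0 libraries differed by -0.02 and -0.05. The part of these trends in the results was not tested. The fit was repeated with an offset that takes out, library by library, the smooth trend of level on length and GC content. Values with the offset are given for each list, and for a called gene with a printed log2 fold change where the offset moved its fold by more than 1.5 times, turned its sign or ended its call. With it, 3394 of the 5622 calls higher and 3075 of the 4517 calls lower were kept (60.4% and 68.1%), while of calls beyond 4-fold 1831 of 2042 higher and 1138 of 1352 lower were kept (89.7% and 84.2%). Of the calls higher 314, and of the calls lower 17, were called in the opposite direction with the offset, and none of these was beyond 4-fold. The libraries of both days did not overlap for any called gene named here, except Gm45507 and Gm17134.

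**Figure D2:**
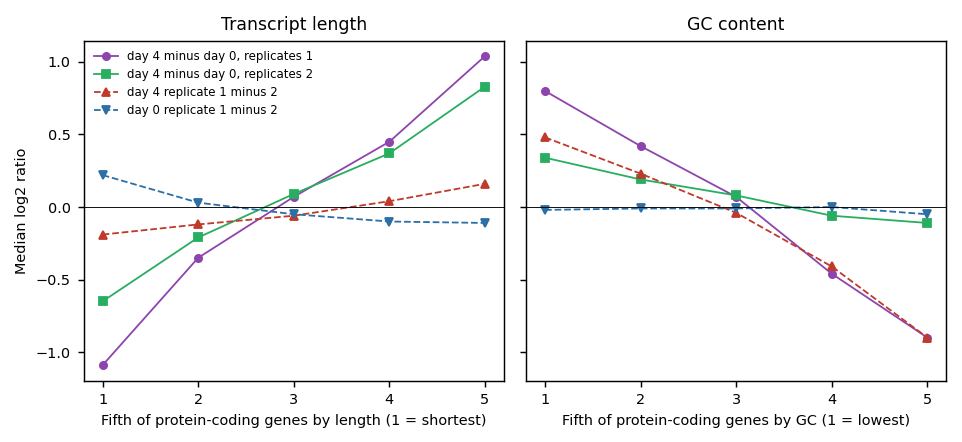
Median log2 ratio of protein-coding genes in 5 classes by transcript length (left) and GC content (right), for day 4 minus day 0 within the replicates numbered 1 and 2, and for replicate 1 minus 2 within each day. Long transcripts were higher at day 4 in both replicate pairs (1.04 and 0.83 in the longest class), and GC-rich genes were lower in day 4 replicate 1 than in replicate 2 (-0.90).

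Genes near absent at day 0 and clearly expressed at day 4 included those of the head organizer and of the endoderm. Lhx1 (ENSMUSG00000018698.15, chromosome 11, 84518284 to 84525535, mm10), a LIM homeobox factor of the organizer, had 38.2 and 47.7 CPM at day 4, against 0 CPM in both libraries at day 0, with 3 counts over both day 0 libraries taken as the floor, at least 1020-fold higher. Cer1 (ENSMUSG00000038192.5, chromosome 4, 82881751 to 82885148, mm10), a secreted inhibitor of Nodal and BMP, had 23.6 and 23.4 CPM at day 4, against 0 CPM in both libraries at day 0, at least 559-fold higher with that floor. Its day 4 libraries lay almost level. Foxa2, a forkhead factor of endoderm and node, had 27.1 and 40.4 CPM at day 4, against 0 and 0.0263 CPM at day 0, where 1 count was found (ratio 2400, 95% counting interval 431 to 95000). Afp, the alpha-fetoprotein of yolk sac and fetal liver, had 46.5 and 38.4 CPM at day 4, against 0 and 0.0263 CPM at day 0 (ratio 3040, 95% counting interval 545 to 120000). The secreted carriers Ttr and Apoa4 had no count at day 0: Ttr had 12.3 and 20.4 CPM at day 4, against 0 CPM in both libraries at day 0 (at least 387-fold higher). Apoa4 had 8.21 and 19.8 CPM at day 4, against 0 CPM in both libraries at day 0 (at least 331-fold higher). In all, 20 genes with at least 5 CPM at day 4 had at most 3 counts over both day 0 libraries, and 19 of them were called. One of them was the predicted gene Gm28036 (at least 1840-fold higher), which overlaps Cpne1, Rbm12 and Nfs1 on the same strand, so that reads may be split between them.

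The other genes among the 15 largest rises are given next. Prss12, a secreted serine protease, had 13.4 and 15.9 CPM at day 4, against 0.0299 and 0 CPM at day 0 (ratio 1050, 95% counting interval 188 to 41400). Frzb, a secreted WNT antagonist, had 13.3 and 10.98 CPM at day 4, against 0 and 0.0263 CPM at day 0 (ratio 869, 95% counting interval 156 to 34300). Pcdh7, a protocadherin, had 16.3 and 13.2 CPM at day 4, against 0.0299 and 0.0263 CPM at day 0 (ratio 530, 95% counting interval 146 to 4380). These 3 genes were all within 3 counts of absence at day 0. Apob, the structural protein of secreted lipoproteins, had 199 and 133 CPM at day 4, against 0.269 and 0.448 CPM at day 0 (log2 fold change 8.83, SE 0.45, adjusted p = 8.91e-06, and 7.19 with the offset). Aplnr, the apelin receptor of migrating mesendoderm, had 13.4 and 12.5 CPM at day 4, against 0.0299 and 0.0527 CPM at day 0 (ratio 308, 95% counting interval 105 to 1490). T, the Brachyury factor of the primitive streak, had 90.3 and 106 CPM at day 4, against 0.388 and 0.342 CPM at day 0 (log2 fold change 8.06, SE 1.70, adjusted p = 0.0038). Muc13, a transmembrane mucin, had 9.90 and 11.2 CPM at day 4, against 0.0598 and 0.0263 CPM at day 0 (ratio 251, 95% counting interval 85.7 to 1220), and Aqp8, a water channel, had 9.97 and 12.6 CPM at day 4, against 0.0598 and 0.0527 CPM at day 0 (log2 fold change 7.58). Libraries that did not overlap between the days were a condition for choosing the 15 genes.

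**Figure D3:**
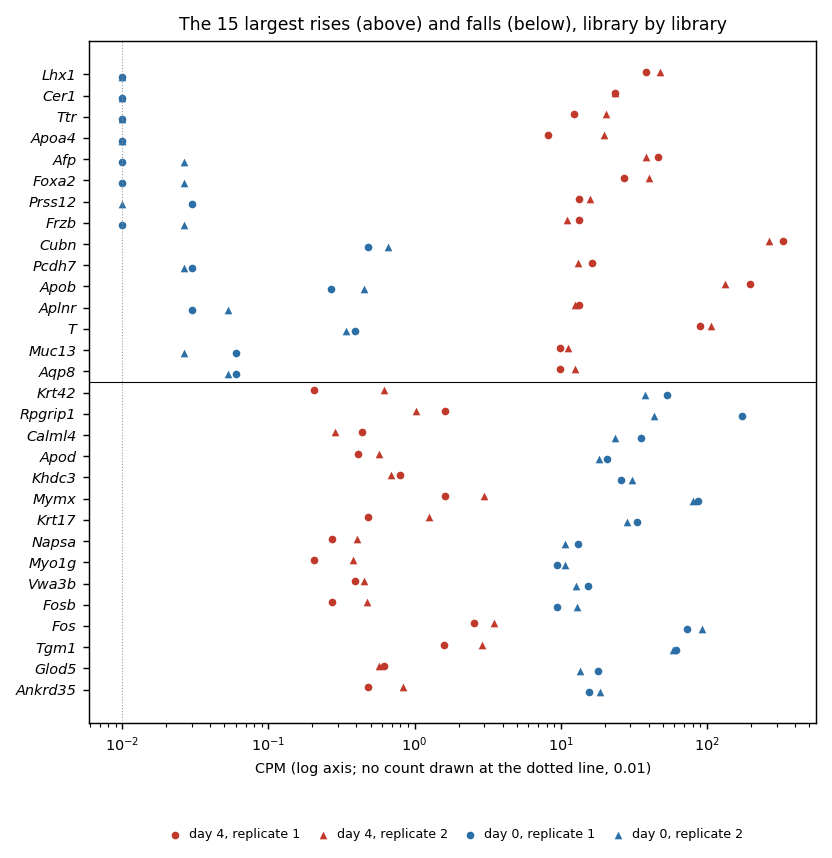
CPM of each library (log axis, circles for replicate 1 and triangles for replicate 2, day 4 in red and day 0 in blue) for the 15 largest rises above the line and the 15 largest falls below it, chosen among calls reaching 10 CPM in the group where the gene was higher. Libraries with no count are drawn at the dotted line. Red and blue points do not overlap because the genes were also chosen for libraries that did not overlap between the days. Rpgrip1 shows the widest gap between replicates at day 0 (174 and 43.4 CPM).

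The start regions of Lhx1 and Cer1, both without a count at day 0, differ in base composition. They are shown from 250 bases before to 50 after the start, as listed by RefSeq on GRCm38.p6, the assembly of mm10, with every CpG in capitals: the Lhx1 window (chr11:84525485-84525784, minus strand) holds 31 CpGs at 65.7% GC, and the Cer1 window (chr4:82885102-82885401, minus strand) holds 6 at 51.7%.

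Lhx1: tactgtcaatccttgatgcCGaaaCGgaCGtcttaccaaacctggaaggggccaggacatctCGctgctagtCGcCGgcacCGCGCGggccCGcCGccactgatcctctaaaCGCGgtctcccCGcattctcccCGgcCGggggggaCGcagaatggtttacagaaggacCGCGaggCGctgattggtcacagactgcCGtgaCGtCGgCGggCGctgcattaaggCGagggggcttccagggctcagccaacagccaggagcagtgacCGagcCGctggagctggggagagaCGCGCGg

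Cer1: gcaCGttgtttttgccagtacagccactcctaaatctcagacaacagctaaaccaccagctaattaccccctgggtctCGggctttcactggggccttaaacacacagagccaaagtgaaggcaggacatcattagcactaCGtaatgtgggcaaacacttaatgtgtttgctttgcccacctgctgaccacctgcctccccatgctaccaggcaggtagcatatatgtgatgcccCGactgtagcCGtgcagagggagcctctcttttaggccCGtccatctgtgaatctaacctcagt

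Among all 32851 promoter windows listed by RefSeq, 33.5% were CpG-rich, here at least 50% GC with CpGs at 0.6 or more of the number the base composition predicts. The share was 44% (607 of 1381) for genes called higher by more than 4-fold, 35% (305 of 871) for those called lower by more than 4-fold, and 58.4% (4008 of 6858) for genes tested and not called. Genes called in either direction without regard to size had 62% (higher) and 58.7% (lower).

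The genes that fell the most included keratins and both FOS genes. Krt42 (ENSMUSG00000053654.7, chromosome 11, 100262882 to 100269871, mm10), a type I keratin, had 0.206 and 0.618 CPM at day 4, against 53.2 and 37.7 CPM at day 0 (log2 fold change -6.78, SE 0.71, adjusted p = 0.000124, and -5.80 with the offset). Rpgrip1, a protein of the photoreceptor cilium, had 1.62 and 1.02 CPM at day 4, against 174 and 43.4 CPM at day 0 (log2 fold change -6.36, SE 0.80, adjusted p = 0.0003). Its day 0 libraries differed from each other by more than those of the other large falls. Calml4, a calmodulin-like protein, had 0.434 and 0.285 CPM at day 4, against 35.2 and 23.5 CPM at day 0 (log2 fold change -6.34, and -5.50 with the offset). Khdc3, a maternal protein of the oocyte cortex, had 0.800 and 0.689 CPM at day 4, against 25.8 and 30.8 CPM at day 0 (log2 fold change -5.24, and -4.28 with the offset). Mymx, the micropeptide of myoblast fusion, had 1.62 and 2.97 CPM at day 4, against 87.4 and 80.9 CPM at day 0 (log2 fold change -5.19, and -3.59 with the offset). The FOS genes encode AP-1 factors that respond within minutes to growth signals. Fos had 2.54 and 3.47 CPM at day 4, against 72.6 and 93.3 CPM at day 0 (log2 fold change -4.79). Fosb had 0.274 and 0.475 CPM at day 4, against 9.50 and 13.01 CPM at day 0 (log2 fold change -4.90). Tgm1, a transglutaminase of skin, had 1.6 and 2.88 CPM at day 4, against 61.9 and 58.3 CPM at day 0 (log2 fold change -4.75). Krt17, Apod, Napsa, Myo1g, Vwa3b, Glod5 and Ankrd35 completed the 15, with log2 fold changes from -5.31 to -4.70 and at most 1.26 CPM in any day 4 library. With the offset Krt17 had -4.34, Napsa -4.43, Vwa3b -4.18 and Glod5 -4.03. Predicted genes and pseudogenes were left out of these lists, 1 among the rises and 9 among the falls.

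Near absence at day 4 was rarer, with 7 genes of at least 5 CPM at day 0, most of them predicted genes. Gm44709 had 0 CPM in both libraries at day 4, against 46.9 and 9.85 CPM at day 0 (at least 779-fold lower, floor 3 counts in the group), and Gm45732 had 0 CPM in both libraries at day 4, against 17.2 and 5.79 CPM at day 0 (at least 318-fold lower). Gm45507 and Gm17134 had counts in day 0 replicate 1 only, at 26.8 and 23.7 CPM, and without that library their fitted log2 fold change turned to 3.70 and 2.32. With the offset they were not called (adjusted p = 0.0689 and 0.0693). Gm26083 had 0 and 0.0238 CPM at day 4, against 13.3 and 5.16 CPM at day 0. Fyb, an adaptor of immune cells, had 0.0229 and 0.0475 CPM at day 4, against 3.79 and 12.03 CPM at day 0, with a day 0 over day 4 ratio of 234 and a 95% counting interval of 79.6 to 1140.

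The 10 largest gains in CPM were ranked among called genes, with ribosomal protein and mitochondrially encoded genes left out of the ranking. The 13 mitochondrially encoded genes summed to 29654 and 20348 CPM at day 4, against 12829.5 and 16331 CPM at day 0. Dnmt3b (ENSMUSG00000027478.15, chromosome 2, 153649450 to 153687730, mm10), the de novo DNA methyltransferase of the epiblast, had 1293 and 1453 CPM at day 4, against 205 and 238 CPM at day 0 (log2 fold change 2.63, SE 0.19, adjusted p = 3.07e-05). Pim2, a survival kinase, had 552 and 693 CPM at day 4, against 74.7 and 79.3 CPM at day 0 (log2 fold change 3.02, and 3.82 with the offset). Srrm2, a splicing scaffold, had 1001 and 1114 CPM at day 4, against 282 and 341 CPM at day 0 (log2 fold change 1.76, and 0.96 with the offset). Ddx3x, an RNA helicase, had 1432 and 949.7 CPM at day 4, against 357 and 380.2 CPM at day 0 (log2 fold change 1.69, and 0.33 with the offset). These 4 genes kept their direction and call with the offset. Actg1, cytoplasmic gamma actin, had 2175 and 2705 CPM at day 4, against 1429 and 1257 CPM at day 0 (log2 fold change 0.86, and 1.5 with the offset). Slc2a3, the high-affinity glucose transporter, had 1850.1 and 1702 CPM at day 4, against 859 and 904 CPM at day 0 (log2 fold change 1.01, and 0.22 with the offset at an adjusted p of 0.179). The gain of Actg1 was larger with the offset, and that of Slc2a3 was not called. Nedd4, a ubiquitin ligase, had 2177 and 1766 CPM at day 4, against 892 and 1159.7 CPM at day 0 (log2 fold change 0.94, and -0.33 with the offset at an adjusted p of 0.0818). Eif4g2, a translation factor, had 1765 and 1235 CPM at day 4, against 708 and 749.7 CPM at day 0 (log2 fold change 1.04, and 0.05 with the offset at an adjusted p of 0.74). Tnks2, a tankyrase, had 932 and 615 CPM at day 4, against 210.2 and 242 CPM at day 0 (log2 fold change 1.77, and 0.20 with the offset at an adjusted p of 0.175). For Nedd4, Eif4g2 and Tnks2 too the gain was not called with the offset. Gm15459, a predicted gene that may share reads with a close copy, had 1375 and 635 CPM at day 4, against 141 and 332 CPM at day 0.

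The 10 largest losses in CPM were ranked in the same way. Dppa5a, an RNA-binding protein of pluripotent cells, had 478 and 407 CPM at day 4, against 4713 and 2819.5 CPM at day 0 (log2 fold change -3.09, SE 0.37, adjusted p = 0.000248, and -2.12 with the offset). Rack1, a scaffold on the ribosome, had 1462 and 2216 CPM at day 4, against 4378 and 3398 CPM at day 0 (log2 fold change -1.08). Ptma, prothymosin, a small nuclear protein, had 2608 and 2407 CPM at day 4, against 4618 and 4195 CPM at day 0 (log2 fold change -0.81, and 0.16 with the offset at an adjusted p of 0.58). Ppia, cyclophilin A, had 1446 and 1302 CPM at day 4, against 3719.9 and 2519.5 CPM at day 0 (log2 fold change -1.18, and -0.38 with the offset at an adjusted p of 0.0573). The rest were CT010467.1 (a ribosomal RNA), Ftl1-ps1, Gm29216, Rps2-ps10, Gm15500 and Gm10275, with log2 fold changes from -2.29 to -0.95. Reads of pseudogenes and predicted copies may belong in part to near-identical genes. With the offset CT010467.1 (log2 fold change -0.43), Ftl1-ps1 (-0.70), Rps2-ps10 (-0.28) and Gm10275 (-0.66) were not called, at adjusted p of 0.184 to 0.588, and Gm29216 had -1.66. For CT010467.1, the call was lost without day 4 replicate 2 or day 0 replicate 1 at an adjusted p of 0.0524 to 0.0525. For Ftl1-ps1, the call was lost without day 0 replicate 1 or day 0 replicate 2 at an adjusted p of 0.0729 to 0.122. For Gm15500, the call was lost without day 0 replicate 1 at an adjusted p of 0.081. For Gm10275, the call was lost without day 4 replicate 1, day 0 replicate 1 or day 0 replicate 2 at an adjusted p of 0.0549 to 0.112.

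**Figure D4:**
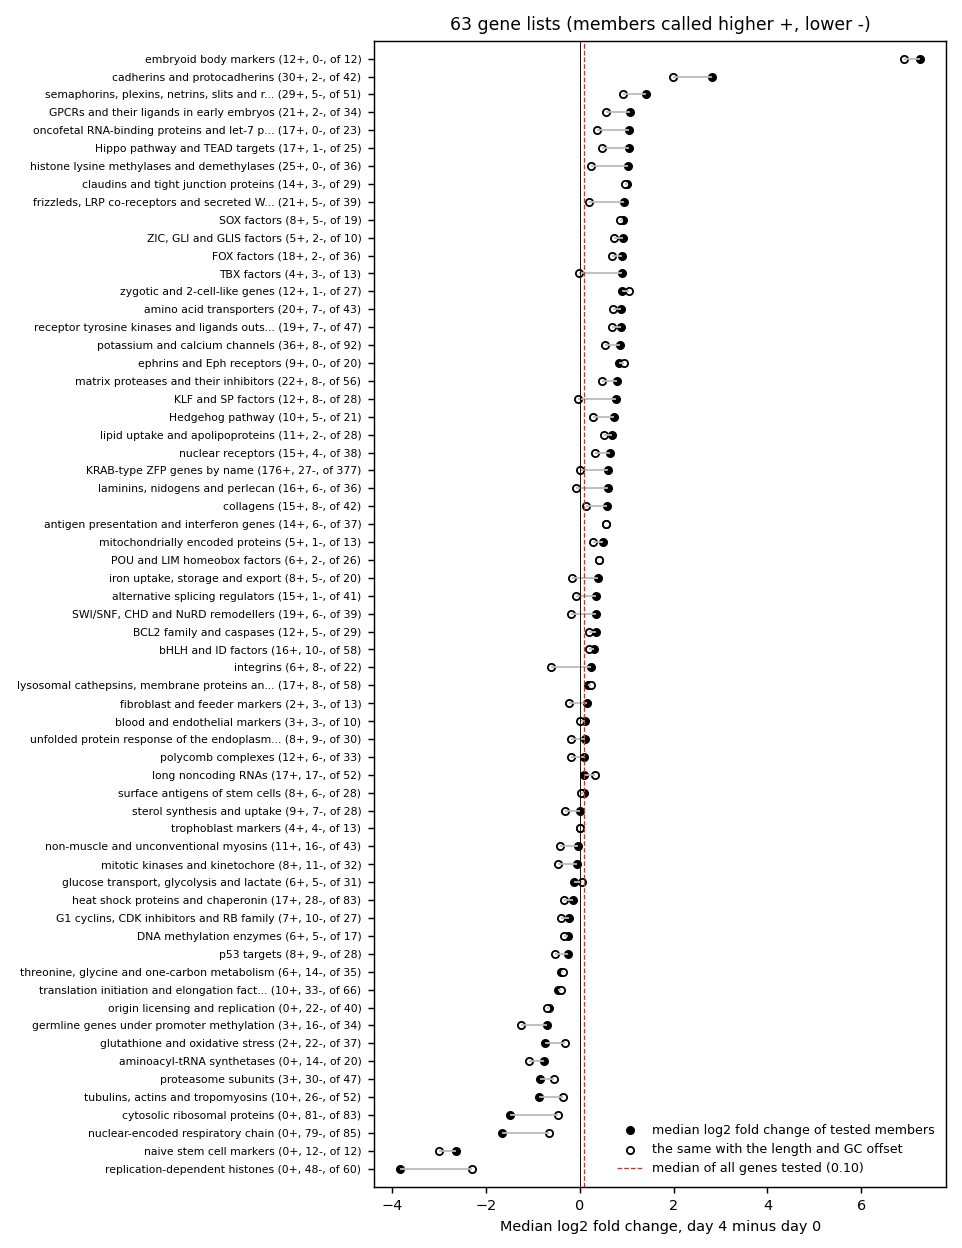
Median log2 fold change (day 4 minus day 0) of the tested members of 63 gene lists, without (filled) and with (open) the length and GC offset, and beside each name the members called higher (+) and lower (-). The median of all genes tested was 0.10 (dashed). Cadherins and protocadherins had the highest median after the embryoid body markers (2.81), and replication-dependent histones the lowest (-3.83).

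The counts of the lists below stand beside 28.9% called higher and 23.2% called lower over all genes tested. Among protein-coding genes the class with the longest transcripts had 65.4% higher and 4.75% lower, and the shortest class 5.61% and 58.5%. Calcium-dependent adhesion molecules, which sort and hold cells, were mostly higher at day 4. Of the 42 cadherins and protocadherins tested, 30 were called higher and 2 lower, and the list median was 2.81 (log2 fold change), and 1.99 with the offset. Cdh1, the epithelial E-cadherin, had 709 and 796 CPM at day 4, against 371 and 425 CPM at day 0 (log2 fold change 0.92, and 0.29 with the offset at an adjusted p of 0.0939). Fat1, a giant atypical cadherin, had 401 and 479 CPM at day 4, against 70.3 and 98.9 CPM at day 0 (log2 fold change 2.38, and 0.97 with the offset). Both day 4 libraries lay above both day 0 libraries for these genes, as for 5619 of the 5622 genes called higher. Pcdhgc4, a clustered protocadherin, had 15.1 and 19.7 CPM at day 4, against 43.3 and 46.7 CPM at day 0 (log2 fold change -1.37). Among 29 claudins and tight junction proteins tested, 14 were called higher and 3 lower (median log2 fold change 1.00, and 0.96 with the offset). The 28 tested surface antigens used to sort pluripotent cells had 8 calls higher and 6 lower, and their median log2 fold change was 0.08, or 0.02 with the offset, the split being 4 higher and 8 lower on the centred TPM scale. Podxl (ENSMUSG00000025608.9, chromosome 6, 31519488 to 31563981, mm10), an anti-adhesive sialomucin of epithelia with a lumen, had 475 and 467 CPM at day 4, against 38.99 and 40 CPM at day 0 (log2 fold change 3.58, SE 0.16, adjusted p = 5.74e-06, and 2.60 with the offset). Itgb1, the common integrin beta chain, had 351 and 256 CPM at day 4, against 125 and 144 CPM at day 0 (log2 fold change 1.17, and 0.15 with the offset at an adjusted p of 0.338). Epcam, an epithelial adhesion protein, had 174 and 207 CPM at day 4, against 264 and 286 CPM at day 0 (log2 fold change -0.53, and 0.07 with the offset at an adjusted p of 0.776). For Epcam, the call was lost without day 4 replicate 1, day 0 replicate 1 or day 0 replicate 2 at an adjusted p of 0.0555 to 0.111. Among 22 integrin chains tested, 6 were called higher and 8 lower (median log2 fold change 0.25, and -0.61 with the offset), the split being 9 higher and 6 lower by library totals, 5 higher and 1 lower on the TPM scale, 8 higher and 5 lower without day 4 replicate 1, 5 higher and 3 lower without day 0 replicate 1 and 6 higher and 3 lower without day 0 replicate 2.

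Guidance receptors and ligands, by which cells attract or repel each other on contact or at a distance, were also more often higher than lower. Median transcript lengths were 4491 bases for the semaphorin list and 3698 bases for the ephrin list, against 2199 over all tested genes. The 51 tested semaphorins, plexins, netrins, slits and their receptors had 29 calls higher and 5 lower, and their median log2 fold change was 1.41, or 0.93 with the offset. Plxna1, a semaphorin receptor, had 117 and 230.3 CPM at day 4, against 57.7 and 73.2 CPM at day 0 (log2 fold change 1.41, and 0.63 with the offset). Sema6a, a transmembrane semaphorin, had 144 and 172 CPM at day 4, against 4.42 and 4.82 CPM at day 0 (log2 fold change 5.09, SE 0.24, adjusted p = 6.61e-06, and 3.99 with the offset). Sema4b, another transmembrane semaphorin, had 17.9 and 38.1 CPM at day 4, against 61.8 and 71.1 CPM at day 0 (log2 fold change -1.25). For Sema4b, the call was lost without day 0 replicate 2 at an adjusted p of 0.0707. Of the 20 ephrins and Eph receptors tested, 9 were called higher and 0 lower, and the list median was 0.84 (log2 fold change), and 0.95 with the offset. Epha1, a receptor kinase for ephrin-A ligands, had 127 and 196 CPM at day 4, against 13.8 and 17.7 CPM at day 0 (log2 fold change 3.36). Efnb2, an ephrin of vessels and somites, had 44.1 and 39.1 CPM at day 4, against 4.33 and 4.69 CPM at day 0 (log2 fold change 3.20, and 2.39 with the offset).

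Receptors of diffusible signals moved in the same main direction. Among 39 WNT receptors and secreted WNT modulators tested, 21 were called higher and 5 lower (median log2 fold change 0.95, and 0.20 with the offset). Fzd7, a frizzled receptor, had 225 and 213 CPM at day 4, against 56.8 and 59.3 CPM at day 0 (log2 fold change 1.91). Lrp6, a WNT co-receptor, had 144 and 106 CPM at day 4, against 36.03 and 37.05 CPM at day 0 (log2 fold change 1.77, and 0.15 with the offset at an adjusted p of 0.223). Dkk3, a secreted dickkopf protein, had 3.91 and 2.995 CPM at day 4, against 16.6 and 17.01 CPM at day 0 (log2 fold change -2.28). The 47 tested receptor tyrosine kinases and ligands outside the FGF and Eph families had 19 calls higher and 7 lower, and their median log2 fold change was 0.87, or 0.68 with the offset. Igf1r, the receptor of insulin-like growth factors, had 117 and 125 CPM at day 4, against 19.8 and 23.6 CPM at day 0 (log2 fold change 2.48, and 1.05 with the offset). Erbb3, a neuregulin receptor, had 61.3 and 67.4 CPM at day 4, against 19.3 and 21.1 CPM at day 0 (log2 fold change 1.67, and 0.59 with the offset). Flt1, a receptor of VEGF named here after its values were seen, had 44.4 and 41.03 CPM at day 4, against 1.11 and 1.53 CPM at day 0 (log2 fold change 5.01, SE 0.27, adjusted p = 9.74e-06, and 3.81 with the offset). Pdgfa, a PDGF ligand, had 8.03 and 16.6 CPM at day 4, against 35.3 and 39.7 CPM at day 0 (log2 fold change -1.61, and -0.71 with the offset). Of the 34 G protein coupled receptors and their ligands tested, 21 were called higher and 2 lower, and the list median was 1.07 (log2 fold change), and 0.55 with the offset. Trh, the precursor of thyrotropin-releasing hormone, had 427 and 649 CPM at day 4, against 273 and 294 CPM at day 0 (log2 fold change 0.92, and 1.62 with the offset). For Trh, the call was lost without day 0 replicate 1 at an adjusted p of 0.0676. Adgrl2, the adhesion receptor latrophilin 2, had 200.3 and 193 CPM at day 4, against 16.04 and 20.1 CPM at day 0 (log2 fold change 3.44, and 2.75 with the offset). Apela, the early ligand of the apelin receptor, had 31.3 and 23.6 CPM at day 4, against 52.97 and 47.3 CPM at day 0 (log2 fold change -0.87). The ligand gene Apela was lower, and its receptor gene Aplnr, given above, was higher.

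The Hedgehog and Hippo pathways pattern and size tissues. Their tested genes were called higher in 47.6 and 68% of cases, against 28.9% over all genes tested. They were called lower in 23.8 and 4%, against 23.2%, so that the Hedgehog share lower lay near that over all genes. Median transcript lengths were 4451 and 3590 bases, against 2199 over all tested genes. Among 21 Hedgehog pathway genes tested, 10 were called higher and 5 lower (median log2 fold change 0.72, and 0.28 with the offset). Ptch1, the Hedgehog receptor, had 133 and 128 CPM at day 4, against 66.4 and 61.5 CPM at day 0 (log2 fold change 1.03, and -0.27 with the offset at an adjusted p of 0.523). For Ptch1, the call was lost without any 1 of the 4 libraries at adjusted p of 0.0657 to 0.16. Smo, the signal transducer, had 74.8 and 113 CPM at day 4, against 25.1 and 33.97 CPM at day 0 (log2 fold change 1.67). Gli2, a zinc finger effector, had 19.96 and 33.7 CPM at day 4, against 47.3 and 58.4 CPM at day 0 (log2 fold change -0.98). For Gli2, the call was lost without day 4 replicate 1, day 0 replicate 1 or day 0 replicate 2 at an adjusted p of 0.0571 to 0.128. The 25 tested genes of the Hippo pathway had 17 calls higher and 1 lower, and their median log2 fold change was 1.05, or 0.47 with the offset. Amot (ENSMUSG00000041688.16, chromosome X, 145446425 to 145505181, mm10), angiomotin, a scaffold that binds YAP at junctions, had 391 and 315 CPM at day 4, against 3.94 and 4.87 CPM at day 0 (log2 fold change 6.32, SE 0.28, adjusted p = 5.74e-06, and 4.93 with the offset). Yap1, the co-activator held back by Hippo kinases, had 303 and 271 CPM at day 4, against 121 and 120.2 CPM at day 0 (log2 fold change 1.25). Tead4, a DNA-binding partner of YAP, had 5.62 and 8.22 CPM at day 4, against 12.6 and 10.5 CPM at day 0 (log2 fold change -0.74, and -0.27 with the offset at an adjusted p of 0.385). For Tead4, the call was lost without day 4 replicate 1, day 0 replicate 1 or day 0 replicate 2 at an adjusted p of 0.0597 to 0.185.

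Genes of the matrix and of the cytoskeleton moved both ways. Of the 42 collagen chains tested, 15 were called higher and 8 lower, and the list median was 0.59 (log2 fold change), and 0.13 with the offset, the split being 2 higher and 6 lower on the centred TPM scale and 12 higher and 13 lower without day 4 replicate 2. Among 36 basement membrane glycoproteins tested, 16 were called higher and 6 lower (median log2 fold change 0.61, and -0.08 with the offset), the split being 6 higher and 10 lower on the centred TPM scale. The 56 tested matrix proteases and inhibitors had 22 calls higher and 8 lower, and their median log2 fold change was 0.80, or 0.47 with the offset. Adamts9, a secreted protease of proteoglycans, had 154 and 126 CPM at day 4, against 9.05 and 9.06 CPM at day 0 (log2 fold change 3.95, and 2.74 with the offset). Adam19, a membrane protease, had 69.4 and 78.2 CPM at day 4, against 36.1 and 45 CPM at day 0 (log2 fold change 0.86, and 0.08 with the offset at an adjusted p of 0.788). For Adam19, the call was lost without day 4 replicate 2, day 0 replicate 1 or day 0 replicate 2 at an adjusted p of 0.0675 to 0.181. Adam23, a non-catalytic member of that family, had 66.6 and 52.8 CPM at day 4, against 113 and 117 CPM at day 0 (log2 fold change -0.95, and -1.74 with the offset). Among 52 core cytoskeletal genes tested, 10 were called higher and 26 lower (median log2 fold change -0.86, and -0.36 with the offset), the split being 15 higher and 11 lower on the TPM scale. Tubb5, a beta tubulin, had 1373 and 2336 CPM at day 4, against 2920.3 and 2879.7 CPM at day 0 (log2 fold change -0.65). For Tubb5, the call was lost without day 4 replicate 1, day 0 replicate 1 or day 0 replicate 2 at an adjusted p of 0.116 to 0.139. Tuba1b, an alpha tubulin, had 1499.6 and 1923 CPM at day 4, against 2817 and 2446 CPM at day 0 (log2 fold change -0.62, and 0.03 with the offset at an adjusted p of 0.866). For Tuba1b, the call was lost without day 0 replicate 1 at an adjusted p of 0.0999. Actg1, given above, was the first gene named in the other direction. Of the 43 myosin chains tested, 11 were called higher and 16 lower, and the list median was -0.04 (log2 fold change), and -0.42 with the offset, the split being 14 higher and 9 lower on the TPM scale. Myl6, a myosin light chain, had 204 and 268 CPM at day 4, against 881 and 570.2 CPM at day 0 (log2 fold change -1.62, and -0.39 with the offset at an adjusted p of 0.083). Myl12a, a regulatory light chain, had 154 and 220.0 CPM at day 4, against 383 and 345 CPM at day 0 (log2 fold change -0.96). Myh10, the heavy chain of non-muscle myosin IIB, had 192 and 246 CPM at day 4, against 81.6 and 97.1 CPM at day 0 (log2 fold change 1.29, and 0.39 with the offset).

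Transcription factors are given by family. Of the 36 forkhead factors tested, 18 were called higher and 2 lower, and the list median was 0.91 (log2 fold change), and 0.68 with the offset. Foxo4, a forkhead factor under insulin control, had 99.7 and 116 CPM at day 4, against 42.5 and 38.2 CPM at day 0 (log2 fold change 1.42). Foxo3, its relative, had 79.2 and 95.5 CPM at day 4, against 38.8 and 43 CPM at day 0 (log2 fold change 1.10). Foxn4, a forkhead factor of retina and cord, had 0.709 and 1.21 CPM at day 4, against 4.81 and 5.27 CPM at day 0 (log2 fold change -2.39). Among 19 SOX factors tested, 8 were called higher and 5 lower (median log2 fold change 0.92, and 0.85 with the offset). Sox11, a factor of neural progenitors, had 105 and 81.1 CPM at day 4, against 19.4 and 15.2 CPM at day 0 (log2 fold change 2.43, and 0.85 with the offset). Sox4, a close relative of Sox11, had 27.6 and 64.02 CPM at day 4, against 8.01 and 9.90 CPM at day 0 (log2 fold change 2.35, and 1.47 with the offset). Sox2, the pluripotency factor, had 165 and 161 CPM at day 4, against 414 and 469.6 CPM at day 0 (log2 fold change -1.44). The 28 tested KLF and SP factors had 12 calls higher and 8 lower, and their median log2 fold change was 0.77, or -0.04 with the offset, the split being 7 higher and 8 lower on the centred TPM scale. Sp1, a general activator of GC boxes, had 326 and 231 CPM at day 4, against 107 and 124 CPM at day 0 (log2 fold change 1.27, and -0.12 with the offset at an adjusted p of 0.371). Sp3, its relative, had 175 and 99.2 CPM at day 4, against 59.04 and 70.4 CPM at day 0 (log2 fold change 1.08, and -0.21 with the offset at an adjusted p of 0.15). For Sp3, the call was lost without day 0 replicate 1 at an adjusted p of 0.0596. Klf2, a factor of naive cells, had 16.1 and 39.6 CPM at day 4, against 322 and 306 CPM at day 0 (log2 fold change -3.50, and -2.73 with the offset).

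Among 10 ZIC, GLI and GLIS factors tested, 5 were called higher and 2 lower (median log2 fold change 0.92, and 0.72 with the offset). Zic5, a zinc finger factor of neural tissue, had 137 and 94.6 CPM at day 4, against 24.6 and 23.8 CPM at day 0 (log2 fold change 2.26, and 1.48 with the offset). Zic2, a factor of the epiblast after implantation, had 86.2 and 127 CPM at day 4, against 9.68 and 21.3 CPM at day 0 (log2 fold change 2.78). Gli2 of this list is given above. Of the 38 nuclear receptors tested, 15 were called higher and 4 lower, and the list median was 0.64 (log2 fold change), and 0.32 with the offset, the split being 5 higher and 7 lower on the centred TPM scale. Nr6a1, germ cell nuclear factor, a repressor of pluripotency genes, had 307 and 252 CPM at day 4, against 37.4 and 40.8 CPM at day 0 (log2 fold change 2.84, and 1.64 with the offset). Nr2c2, the orphan receptor TR4, had 48.8 and 30.2 CPM at day 4, against 1.22 and 1.87 CPM at day 0 (log2 fold change 4.67, and 3.37 with the offset). Esrrb, an orphan receptor of naive cells, had 58.3 and 84.1 CPM at day 4, against 477 and 571 CPM at day 0 (log2 fold change -2.88). The 58 tested bHLH and ID factors had 16 calls higher and 10 lower, and their median log2 fold change was 0.31, or 0.20 with the offset, the split being 15 higher and 19 lower without day 4 replicate 2. Hif1a, the oxygen-regulated factor, had 219.5 and 136 CPM at day 4, against 60.2 and 62.3 CPM at day 0 (log2 fold change 1.54, and 0.18 with the offset at an adjusted p of 0.198). Tcf12, an E protein, had 114 and 88.6 CPM at day 4, against 9.89 and 12.3 CPM at day 0 (log2 fold change 3.19, and 2.20 with the offset). Tfeb, the master factor of lysosome genes, had 1.12 and 5.40 CPM at day 4, against 55.2 and 50.9 CPM at day 0 (log2 fold change -4.03). Among 26 POU, LIM and IRX homeobox factors tested, 6 were called higher and 2 lower (median log2 fold change 0.42, and 0.42 with the offset). Pou2f1, the ubiquitous OCT1, had 133 and 89.8 CPM at day 4, against 37.3 and 36.4 CPM at day 0 (log2 fold change 1.6, and 0.38 with the offset at an adjusted p of 0.133). Pou3f1, OCT6, of the epiblast after implantation, had 30.8 and 59.3 CPM at day 4, against 8.04 and 10.1 CPM at day 0 (log2 fold change 2.31). Pou5f1, OCT4, had 424 and 859.7 CPM at day 4, against 2172 and 2067 CPM at day 0 (log2 fold change -1.72, and -1.06 with the offset). Of the 13 T-box factors tested, 4 were called higher and 3 lower, and the list median was 0.89 (log2 fold change), and -0.02 with the offset, the split being 2 higher and 3 lower with the offset.

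The 377 tested genes named zinc finger protein, a class rich in KRAB repressors of transposons, had 176 calls higher and 27 lower, and their median log2 fold change was 0.61, or 0.01 with the offset. Zfp106, an RNA-binding zinc finger protein, had 845 and 701 CPM at day 4, against 324 and 363 CPM at day 0 (log2 fold change 1.17, and -0.30 with the offset at an adjusted p of 0.162). Zfp207, a spindle protein, had 329 and 250.2 CPM at day 4, against 180.5 and 197 CPM at day 0 (log2 fold change 0.62, and 0.09 with the offset at an adjusted p of 0.565). For Zfp207, the call was lost without day 4 replicate 1, day 0 replicate 1 or day 0 replicate 2 at an adjusted p of 0.0673 to 0.165. Their summed level was 12460.0 and 10256 CPM at day 4, against 8725 and 9126 CPM at day 0.

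Chromatin regulators are set against all tested genes, of which 28.9% were called higher and 23.2% lower. The shares higher and lower were 69.4 and 0% for histone methylases and demethylases, 48.7 and 15.4% for remodellers, 36.4 and 18.2% for Polycomb subunits and 35.3 and 29.4% for genes of DNA methylation, so that the last list lay near the shares over all genes. Of the 36 histone lysine methylases and demethylases tested, 25 were called higher and 0 lower, and the list median was 1.02 (log2 fold change), and 0.24 with the offset. Nsd1, a methylase of histone H3, had 343 and 270.1 CPM at day 4, against 158 and 169.9 CPM at day 0 (log2 fold change 0.90, and -0.60 with the offset at an adjusted p of 0.00382). Setd2, another methylase of histone H3, had 214 and 163 CPM at day 4, against 59.2 and 73.96 CPM at day 0 (log2 fold change 1.5, and 0.52 with the offset). The list had a median transcript length of 4604 bases, against 2199 bases over all tested genes. Among 39 chromatin remodellers tested, 19 were called higher and 6 lower (median log2 fold change 0.35, and -0.18 with the offset). Chd4, the NuRD helicase, had 608 and 664 CPM at day 4, against 338 and 376 CPM at day 0 (log2 fold change 0.83, and -0.06 with the offset at an adjusted p of 0.761). For Chd4, the call was lost without day 0 replicate 1 at an adjusted p of 0.0745. Smarcc1, a core SWI/SNF subunit, had 421 and 371 CPM at day 4, against 205 and 231 CPM at day 0 (log2 fold change 0.86, and -0.23 with the offset at an adjusted p of 0.153). Smarcb1, another core subunit, had 76.7 and 126 CPM at day 4, against 181 and 176 CPM at day 0 (log2 fold change -0.82, and -0.23 with the offset at an adjusted p of 0.129). For Smarcb1, the call was lost without day 0 replicate 1 or day 0 replicate 2 at an adjusted p of 0.0561 to 0.0746. The 33 tested Polycomb subunits had 12 calls higher and 6 lower, and their median log2 fold change was 0.10, or -0.18 with the offset, the split being 7 higher and 11 lower with the offset. Rbbp7, a histone-binding subunit, had 761 and 605 CPM at day 4, against 496 and 438 CPM at day 0 (log2 fold change 0.55). For Rbbp7, the call was lost without day 4 replicate 1, day 0 replicate 1 or day 0 replicate 2 at an adjusted p of 0.0707 to 0.194. Suz12, a core subunit of the methylase complex, had 345 and 218 CPM at day 4, against 128 and 152 CPM at day 0 (log2 fold change 1.01, and -0.38 with the offset at an adjusted p of 0.0804). For Suz12, the call was lost without day 4 replicate 1 or day 0 replicate 1 at an adjusted p of 0.0637 to 0.0775. Epop, an accessory subunit of that complex, had 31.6 and 78.1 CPM at day 4, against 250.4 and 236 CPM at day 0 (log2 fold change -2.15, and -1.32 with the offset). Among 17 genes of DNA methylation tested, 6 were called higher and 5 lower (median log2 fold change -0.24, and -0.33 with the offset), the split being 6 higher and 7 lower on the centred TPM scale and 5 higher and 8 lower with the offset.

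Germ cell genes that are known to be silenced by promoter methylation were lower more often than higher. Of the 34 germ cell genes tested, 3 were called higher and 16 lower, and the list median was -0.70 (log2 fold change), and -1.26 with the offset. Stag3, a meiotic cohesin subunit, had 67.02 and 59.9 CPM at day 4, against 151 and 167 CPM at day 0 (log2 fold change -1.32). Rpl10l, a ribosomal protein of the testis, had 7.55 and 10.6 CPM at day 4, against 118 and 91.2 CPM at day 0 (log2 fold change -3.52, SE 0.31, adjusted p = 5.67e-05, and -2.83 with the offset). Tex14, a protein of germ cell bridges, had 8.32 and 6.54 CPM at day 4, against 50.5 and 55.5 CPM at day 0 (log2 fold change -2.83, and -3.65 with the offset). Tex19.1, a germ cell protein that restrains transposons, had 20.8 and 21.7 CPM at day 4, against 75.5 and 77.1 CPM at day 0 (log2 fold change -1.84). The days did not overlap for these 4 genes, as for 4512 of the 4517 genes called lower. Tex15, a meiotic protein, had 19.2 and 10.9 CPM at day 4, against 6.93 and 8.11 CPM at day 0 (log2 fold change 1.00, and -0.29 with the offset at an adjusted p of 0.166). For Tex15, the call was lost without day 4 replicate 1, day 0 replicate 1 or day 0 replicate 2 at an adjusted p of 0.0537 to 0.145. Windows of the list's genes called lower were CpG-rich in 14 of 17 cases (82.4%), and those of its other tested genes in 13 of 18 (72.2%). The windows of Tex14 (chr11:87404815-87405114, plus strand, 20 CpGs) and Tex19.1 (chr11:121145893-121146192, plus strand, 16 CpGs) are shown with every CpG in capitals, since CpGs are the substrate of the methylases. The Tex14 window counts as CpG-rich (CpGs at 0.69 of the predicted number), and the Tex19.1 window, at 0.58, lies just under the limit.

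Tex14: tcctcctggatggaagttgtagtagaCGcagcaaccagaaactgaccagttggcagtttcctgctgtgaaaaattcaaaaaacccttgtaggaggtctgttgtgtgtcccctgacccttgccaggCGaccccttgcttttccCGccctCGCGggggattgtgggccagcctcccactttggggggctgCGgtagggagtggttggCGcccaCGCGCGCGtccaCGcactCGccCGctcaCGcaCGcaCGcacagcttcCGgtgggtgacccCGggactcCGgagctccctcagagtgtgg

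Tex19.1: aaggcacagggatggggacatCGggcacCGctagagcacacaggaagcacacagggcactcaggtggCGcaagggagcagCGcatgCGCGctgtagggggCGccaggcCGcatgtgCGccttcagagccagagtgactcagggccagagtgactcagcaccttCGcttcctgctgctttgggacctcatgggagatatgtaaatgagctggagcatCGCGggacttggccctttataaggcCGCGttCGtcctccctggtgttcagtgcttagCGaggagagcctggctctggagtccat

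Genes of the embryo at the stage of zygotic genome activation, which rare stem cells also express, were more often higher than lower. Among 27 genes of this class tested, 12 were called higher and 1 lower (median log2 fold change 0.89, and 1.06 with the offset). On the centred TPM scale the median was 0.15. The summed level of the list was lower at day 4, at 201.5 and 178.4 CPM, against 219.1 and 229.0 CPM at day 0. That sum includes Dppa4, given below, the 1 member called lower and the highest of the list on both days. The loss of Dppa4 in CPM was larger than that of the sum. Zscan4f, a gene of the Zscan4 cluster whose copies share reads, had 32.1 and 24.8 CPM at day 4, against 10.6 and 13.4 CPM at day 0 (log2 fold change 1.25). For Zscan4f, the call was lost without day 4 replicate 1, day 0 replicate 1 or day 0 replicate 2 at an adjusted p of 0.0544 to 0.122. The list also counts Zfp809, known as a KRAB repressor of retroviruses, which had 27.7 and 21.8 CPM at day 4, against 11.2 and 11.1 CPM at day 0 (log2 fold change 1.15). Dppa4, a chromatin protein of pluripotent cells, had 54.1 and 48.8 CPM at day 4, against 147 and 149 CPM at day 0 (log2 fold change -1.53). Replication-dependent histones, whose RNA mostly lacks a poly(A) tail, had the lowest median of all lists. Of the 60 histone genes tested, 0 were called higher and 48 lower, and the list median was -3.83 (log2 fold change), and -2.29 with the offset. Hist1h2bc, an H2B gene, had 2.63 and 2.995 CPM at day 4, against 17.8 and 13.4 CPM at day 0 (log2 fold change -2.47). Hist1h1c, an H1 gene, had 1.85 and 2.88 CPM at day 4, against 10.8 and 8.50 CPM at day 0 (log2 fold change -2.03, and -1.40 with the offset). Their summed level was only 16.4 and 31.7 CPM at day 4, against 172 and 159 CPM at day 0.

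Genes of amino acid activation and synthesis were more often lower than higher. Atf4, whose product is known to induce several of them under amino acid shortage, was lower too, and a link was not tested. Of the 20 aminoacyl-tRNA synthetases tested, 0 were called higher and 14 lower, and the list median was -0.76 (log2 fold change), and -1.09 with the offset. Here the offset moved the median further from 0. Aars, the alanine enzyme, had 199.9 and 306 CPM at day 4, against 864 and 903 CPM at day 0 (log2 fold change -1.81, and -2.69 with the offset). Gars, the glycine enzyme, had 345 and 324 CPM at day 4, against 872 and 812 CPM at day 0 (log2 fold change -1.33). Nars, the asparagine enzyme, named after its values were seen, had 283 and 253 CPM at day 4, against 579 and 612 CPM at day 0 (log2 fold change -1.15). Among 35 genes of threonine, glycine and one-carbon metabolism tested, 6 were called higher and 14 lower (median log2 fold change -0.41, and -0.36 with the offset), the split being 10 higher and 7 lower on the TPM scale. Psat1, an enzyme of serine synthesis, had 156 and 146 CPM at day 4, against 628 and 633 CPM at day 0 (log2 fold change -2.06, SE 0.15, adjusted p = 3.3e-05). Tdh, threonine dehydrogenase, on which mouse stem cells are known to depend, had 63.4 and 90.1 CPM at day 4, against 643 and 593 CPM at day 0 (log2 fold change -3.01, SE 0.43, adjusted p = 0.000527). Mat2a, the enzyme that makes S-adenosylmethionine, had 513 and 365 CPM at day 4, against 117 and 122.6 CPM at day 0 (log2 fold change 1.87).

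The 30 tested genes of the unfolded protein and amino acid responses had 8 calls higher and 9 lower, and their median log2 fold change was 0.11, or -0.19 with the offset, the split being 13 higher and 7 lower by library totals, 19 higher and 5 lower on the TPM scale and 12 higher and 10 lower without day 4 replicate 2. Asns (ENSMUSG00000029752.12, chromosome 6, 7675169 to 7693254, mm10), asparagine synthetase, had 162 and 148 CPM at day 4, against 881 and 790.2 CPM at day 0 (log2 fold change -2.43, SE 0.17, adjusted p = 3.02e-05). Atf4, the factor that induces Asns, had 107 and 129 CPM at day 4, against 433 and 437 CPM at day 0 (log2 fold change -1.88, and -1.27 with the offset). Canx, a chaperone of the endoplasmic reticulum, had 810.1 and 559.6 CPM at day 4, against 433 and 418 CPM at day 0 (log2 fold change 0.69, and -0.32 with the offset at an adjusted p of 0.0371). For Canx, the call was lost without day 4 replicate 1, day 0 replicate 1 or day 0 replicate 2 at an adjusted p of 0.0669 to 0.118. Trib3, a target of ATF4 named after its values were seen, had 6.49 and 15.8 CPM at day 4, against 78.7 and 77.9 CPM at day 0 (log2 fold change -2.81). Of the 43 amino acid transporters tested, 20 were called higher and 7 lower, and the list median was 0.88 (log2 fold change), and 0.70 with the offset. Slc38a2, a sodium-coupled transporter of neutral amino acids, had 471 and 353 CPM at day 4, against 193 and 197 CPM at day 0 (log2 fold change 1.08, and -0.20 with the offset at an adjusted p of 0.166). Slc38a1, its relative, had 153 and 139 CPM at day 4, against 81.7 and 97.7 CPM at day 0 (log2 fold change 0.70, and -0.73 with the offset at an adjusted p of 0.00083). For Slc38a1, the call was lost without day 0 replicate 1 at an adjusted p of 0.0503. Slc3a2, the heavy chain of the leucine transporter, had 117 and 169 CPM at day 4, against 428 and 453 CPM at day 0 (log2 fold change -1.63, and -0.96 with the offset). Asns, Atf4, Trib3, Psat1 and Slc3a2 stood lower in both day 4 libraries than in either day 0 library, as did 4512 of the 4517 genes called lower. They were picked from lists that went different ways as a whole. The responses had 8 calls higher and 9 lower, and the transporters 20 higher and 7 lower.

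**Figure D5:**
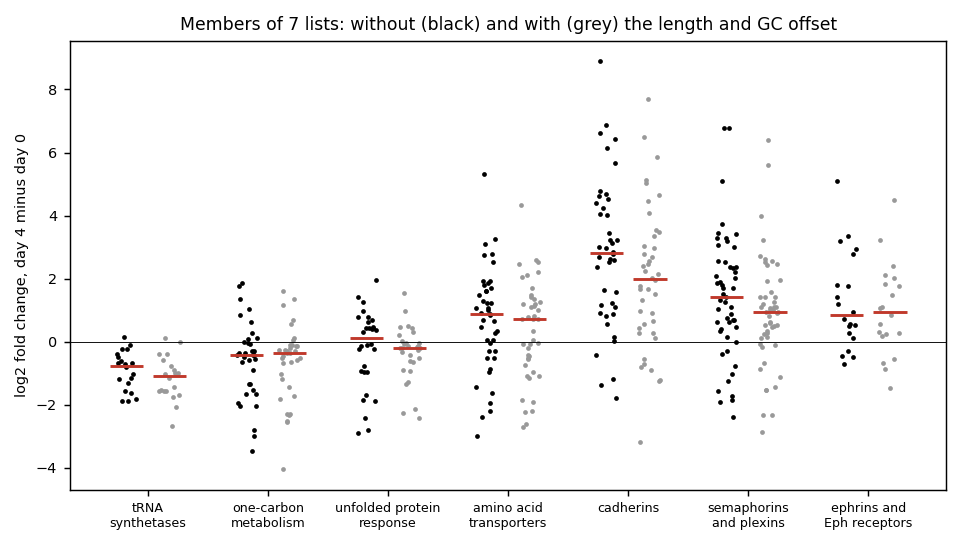
Log2 fold change (day 4 minus day 0) of every tested member of 7 lists, without (black) and with (grey) the length and GC offset; red bars are medians. The tRNA synthetases lie mostly below 0 (median -0.76 and -1.09), the cadherins mostly above it (2.81 and 1.99).

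Nuclear genes of the respiratory chain and genes of ribosomal proteins and the proteasome were mostly lower. Of the 85 nuclear-encoded subunits of the respiratory chain tested, 0 were called higher and 79 lower, and the list median was -1.65 (log2 fold change), and -0.66 with the offset. Among 13 mitochondrially encoded proteins tested, 5 were called higher and 1 lower (median log2 fold change 0.49, and 0.28 with the offset), the split being 2 higher and 3 lower with the offset, 2 higher and 4 lower without day 4 replicate 1 and 0 higher and 1 lower without day 0 replicate 1. The 83 tested cytosolic ribosomal proteins had 0 calls higher and 81 lower, and their median log2 fold change was -1.49, or -0.47 with the offset. The share of all counts from ribosomal proteins was 5.90 and 7.36% at day 4, against 16.9 and 12.5% at day 0. Median transcript lengths were 659 bases in that list and 700 bases for the respiratory chain, against 2199 over all tested genes. Among 66 translation factors tested, 10 were called higher and 33 lower (median log2 fold change -0.46, and -0.40 with the offset), the split being 25 higher and 8 lower on the TPM scale. Eef1g, an elongation factor subunit, had 1648 and 2036 CPM at day 4, against 3478 and 3103 CPM at day 0 (log2 fold change -0.84). Eif4a1, the initiation helicase, had 1700.3 and 1417 CPM at day 4, against 3213 and 2399 CPM at day 0 (log2 fold change -0.85). Of the 47 proteasome genes tested, 3 were called higher and 30 lower, and the list median was -0.84 (log2 fold change), and -0.55 with the offset. Psmb6, a catalytic subunit, had 103 and 179 CPM at day 4, against 548 and 438 CPM at day 0 (log2 fold change -1.81, and -0.75 with the offset). Psmb4, a structural subunit of the core, had 129 and 158 CPM at day 4, against 514 and 381 CPM at day 0 (log2 fold change -1.64, and -0.83 with the offset). Psme4, a nuclear activator of the proteasome, had 519 and 367 CPM at day 4, against 217 and 226 CPM at day 0 (log2 fold change 1.00, and -0.71 with the offset at an adjusted p of 0.00451). The 83 tested chaperones had 17 calls higher and 28 lower, and their median log2 fold change was -0.15, or -0.33 with the offset, the split being 24 higher and 20 lower by library totals and 38 higher and 8 lower on the TPM scale. Hspa8, the constitutive HSC70, had 1680.4 and 1598 CPM at day 4, against 2639 and 2579 CPM at day 0 (log2 fold change -0.67). For Hspa8, the call was lost without day 0 replicate 1 at an adjusted p of 0.0629. Cct7, a chaperonin subunit, had 609 and 667 CPM at day 4, against 1209 and 1058 CPM at day 0 (log2 fold change -0.83). Dnajc13, a co-chaperone of endosomes, had 237 and 188 CPM at day 4, against 63.04 and 84.5 CPM at day 0 (log2 fold change 1.53, and 0.31 with the offset at an adjusted p of 0.167).

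Redox genes were mostly lower, genes of lipid uptake were more often higher than lower, and iron genes were called in both directions. Of the 28 genes of lipid uptake and transport tested, 11 were called higher and 2 lower, and the list median was 0.68 (log2 fold change), and 0.52 with the offset. Lrp2, megalin, the partner of cubilin in endocytosis, had 533 and 492 CPM at day 4, against 30.3 and 32.7 CPM at day 0 (log2 fold change 4.02, SE 0.18, adjusted p = 5.74e-06, and 2.36 with the offset). Fabp3, a fatty acid binding protein, had 83.6 and 117 CPM at day 4, against 239.9 and 211 CPM at day 0 (log2 fold change -1.17, and -0.06 with the offset at an adjusted p of 0.898). For Fabp3, the call was lost without day 4 replicate 1, day 0 replicate 1 or day 0 replicate 2 at an adjusted p of 0.067 to 0.119. Among 20 iron genes tested, 8 were called higher and 5 lower (median log2 fold change 0.38, and -0.17 with the offset). Tfrc, the transferrin receptor, had 499 and 309 CPM at day 4, against 158 and 146 CPM at day 0 (log2 fold change 1.41, and 0.02 with the offset at an adjusted p of 0.9). Ireb2, an iron sensor, had 395 and 237 CPM at day 4, against 114 and 128 CPM at day 0 (log2 fold change 1.38, and -0.34 with the offset at an adjusted p of 0.0614). Fth1, ferritin heavy chain, had 379.6 and 398 CPM at day 4, against 1085 and 851 CPM at day 0 (log2 fold change -1.32, and -0.33 with the offset at an adjusted p of 0.0765). Slc40a1, ferroportin, the exporter of iron, was named after its values were seen and had 64.9 and 45.9 CPM at day 4, against 2.30 and 1.84 CPM at day 0 (log2 fold change 4.74, SE 0.25, adjusted p = 9.74e-06). The 37 tested genes of glutathione and oxidative stress had 2 calls higher and 22 lower, and their median log2 fold change was -0.75, or -0.32 with the offset. Prdx1, a peroxiredoxin, had 1228 and 873 CPM at day 4, against 1920.0 and 1611 CPM at day 0 (log2 fold change -0.75). For Prdx1, the call was lost without day 4 replicate 2 or day 0 replicate 1 at an adjusted p of 0.0987 to 0.13. Gpx4, the peroxidase that protects membranes, had 237 and 449 CPM at day 4, against 1229.8 and 943 CPM at day 0 (log2 fold change -1.66, and -0.23 with the offset at an adjusted p of 0.235). Gclc, the rate-limiting enzyme of glutathione synthesis, had 100.5 and 76.8 CPM at day 4, against 39.4 and 53.4 CPM at day 0 (log2 fold change 0.93, and 0.37 with the offset at an adjusted p of 0.0944). For Gclc, the call was lost without day 0 replicate 1 at an adjusted p of 0.0749. Among 58 lysosomal genes tested, 17 were called higher and 8 lower (median log2 fold change 0.18, and 0.23 with the offset). Ctsl, cathepsin L, had 518 and 431 CPM at day 4, against 215 and 197 CPM at day 0 (log2 fold change 1.20). Atp6v1b2, a proton pump subunit, had 204 and 191 CPM at day 4, against 131 and 148 CPM at day 0 (log2 fold change 0.50, and -0.01 with the offset at an adjusted p of 0.94). For Atp6v1b2, the call was lost without day 4 replicate 1 or day 0 replicate 1 at an adjusted p of 0.0622 to 0.125. Atp6v0c, a membrane subunit of the pump, had 70.4 and 175 CPM at day 4, against 271 and 257 CPM at day 0 (log2 fold change -1.10, and -0.05 with the offset at an adjusted p of 0.702). For Atp6v0c, the call was lost without day 0 replicate 1 or day 0 replicate 2 at an adjusted p of 0.0731 to 0.1. Of the 31 genes of glycolysis tested, 6 were called higher and 5 lower, and the list median was -0.12 (log2 fold change), and 0.05 with the offset, the split being 6 higher and 9 lower on the centred TPM scale, 6 higher and 7 lower with RLE size factors, 4 higher and 6 lower with a replicate block over the 4 WT libraries and 5 higher and 15 lower without day 4 replicate 2. The 28 tested sterol genes had 9 calls higher and 7 lower, and their median log2 fold change was 0.01, or -0.31 with the offset, the split being 5 higher and 13 lower with the offset.

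Genes that control RNA were described by 3 lists. Among 23 oncofetal RNA-binding and let-7 pathway genes tested, 17 were called higher and 0 lower (median log2 fold change 1.05, and 0.36 with the offset). Prtg, protogenin, an adhesion receptor kept in that list as part of its let-7 side and named after its values were seen, had 277 and 212 CPM at day 4, against 7.65 and 6.53 CPM at day 0 (log2 fold change 5.11, SE 0.22, adjusted p = 5.74e-06, and 3.76 with the offset). Of the 41 splicing regulators tested, 15 were called higher and 1 lower, and the list median was 0.35 (log2 fold change), and -0.08 with the offset, the split being 8 higher and 9 lower with the offset. Srsf1, a splicing activator, had 733 and 464 CPM at day 4, against 317 and 299 CPM at day 0 (log2 fold change 0.96). Srsf6, its relative, had 449.9 and 397 CPM at day 4, against 284 and 303 CPM at day 0 (log2 fold change 0.53, and 0.20 with the offset at an adjusted p of 0.187). For Srsf6, the call was lost without day 4 replicate 1, day 0 replicate 1 or day 0 replicate 2 at an adjusted p of 0.0638 to 0.114. Elavl3, a neuronal RNA-binding protein, had 3.82 and 4.99 CPM at day 4, against 10.2 and 9.87 CPM at day 0 (log2 fold change -1.18). For Elavl3, the call was lost without day 4 replicate 1, day 0 replicate 1 or day 0 replicate 2 at an adjusted p of 0.0638 to 0.0803. The 52 tested long noncoding RNAs had 17 calls higher and 17 lower, and their median log2 fold change was 0.10, or 0.33 with the offset. Rian, a maternal transcript of the Dlk1-Dio3 domain, had 691 and 468 CPM at day 4, against 191 and 284 CPM at day 0 (log2 fold change 1.29). Firre, a noncoding RNA of the X chromosome, had 258 and 215 CPM at day 4, against 64.7 and 73.7 CPM at day 0 (log2 fold change 1.78). Snhg1, a host of small nucleolar RNAs, had 183 and 109.9 CPM at day 4, against 293 and 222 CPM at day 0 (log2 fold change -0.81). For Snhg1, the call was lost without day 4 replicate 2 or day 0 replicate 1 at an adjusted p of 0.0974 to 0.165.

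Genes of the cell cycle, of cell death and of membrane excitability were also examined. Of the 40 replication genes tested, 0 were called higher and 22 lower, and the list median was -0.66 (log2 fold change), and -0.70 with the offset, the split being 11 higher and 7 lower on the TPM scale. Among 32 mitosis genes tested, 8 were called higher and 11 lower (median log2 fold change -0.06, and -0.46 with the offset), the split being 10 higher and 5 lower by library totals and 14 higher and 2 lower on the TPM scale. The 27 tested G1 control genes had 7 calls higher and 10 lower, and their median log2 fold change was -0.22, or -0.39 with the offset, the split being 8 higher and 6 lower by library totals and 13 higher and 2 lower on the TPM scale. Of the 28 p53 target genes tested, 8 were called higher and 9 lower, and the list median was -0.25 (log2 fold change), and -0.52 with the offset, the split being 9 higher and 3 lower by library totals, 12 higher and 2 lower on the TPM scale and 6 higher and 4 lower without day 0 replicate 2. Among 29 regulators of apoptosis tested, 12 were called higher and 5 lower (median log2 fold change 0.34, and 0.19 with the offset). Bnip3, a mitophagy receptor, had 388 and 278 CPM at day 4, against 179 and 214 CPM at day 0 (log2 fold change 0.76). For Bnip3, the call was lost without day 4 replicate 1 or day 0 replicate 1 at an adjusted p of 0.0778 to 0.0852. Bnip3l, its relative, had 305 and 216 CPM at day 4, against 159 and 148 CPM at day 0 (log2 fold change 0.76). For Bnip3l, the call was lost without day 4 replicate 1, day 0 replicate 1 or day 0 replicate 2 at an adjusted p of 0.0654 to 0.123. Bax, a pore-forming death protein, had 61.2 and 144 CPM at day 4, against 408 and 349 CPM at day 0 (log2 fold change -1.88, and -0.57 with the offset). The 37 tested genes of antigen presentation and interferon response had 14 calls higher and 6 lower, and their median log2 fold change was 0.57, or 0.57 with the offset, the split being 9 higher and 10 lower on the centred TPM scale. Among 92 potassium and calcium channel genes tested, 36 were called higher and 8 lower (median log2 fold change 0.86, and 0.54 with the offset), the split being 4 higher and 9 lower on the centred TPM scale. Kcnk1, a leak channel, had 58.7 and 66.8 CPM at day 4, against 29.2 and 27.1 CPM at day 0 (log2 fold change 1.16). Kcnj3, an inward rectifier, had 64.8 and 44.3 CPM at day 4, against 2.33 and 1.87 CPM at day 0 (log2 fold change 4.70, SE 0.35, adjusted p = 3.33e-05, and 3.63 with the offset). Cacna1a, the pore of a neuronal calcium channel, had 8.30 and 12.3 CPM at day 4, against 20.7 and 22.5 CPM at day 0 (log2 fold change -1.07).

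Chromosomes and gene classes were described without a test. Median log2 fold changes ran from -0.24 for chromosome 17 to 0.43 for chromosome X among the autosomes and X, and with the offset all of these lay between -0.18 and 0.10. Small and structural RNAs had a median of -2.44 (-1.15 with the offset), with 9 of 30 called lower and 1 higher. The annotation's provisional class (TEC) had 1.43 (1.02 with the offset), with 194 of 494 called higher and 25 lower. Protein-coding genes had a median of 0.10, long noncoding RNAs 0.19, and pseudogenes -0.40 (0.31 with the offset). Pseudogenes took 4.6 and 4.30% of counts at day 4, against 6.73 and 6.11% at day 0, and mitochondrial transcripts 3.19 and 2.15% at day 4, against 1.07 and 1.49% at day 0.

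The series studies SMAD proteins and FOXH1, a forkhead factor that recruits them, so both of their known motifs were searched in the RefSeq promoter windows on either strand. The SMAD palindrome GTCTAGAC was in 70 of 32851 windows (0.213%), in 5 of 1381 (0.362%) of genes called higher by more than 4-fold and in 3 of 871 (0.344%) of those called lower by more than 4-fold. The FOXH1 core TGTGGATT was in 281 of all windows (0.855%), in 13 (0.941%) of those called higher by more than 4-fold and in 7 (0.804%) of those called lower by more than 4-fold. In windows of genes tested and not called the SMAD palindrome had a share of 0.175% and the FOXH1 core 0.642%, in those of all genes called higher 0.313% and 0.626%, and in those of all genes called lower 0.405% and 0.566%. A match is a description of the window and not a binding site, and neither motif contains the other. Foxh1 itself had 32.99 and 82.5 CPM at day 4, against 24.4 and 36.5 CPM at day 0 (log2 fold change 0.92, adjusted p = 0.068, not called, and 1.94 with the offset, adjusted p = 5.55e-05). Of the 15 largest falls Apod, an apolipoprotein of the lipocalin family, holds the core in its window (chr16:31314759-31315058, minus strand), shown with the match in capitals as its reverse complement AATCCACA, and it had 0.412 and 0.571 CPM at day 4, against 20.8 and 18.3 CPM at day 0 (log2 fold change -5.31, and -4.61 with the offset).

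Apod: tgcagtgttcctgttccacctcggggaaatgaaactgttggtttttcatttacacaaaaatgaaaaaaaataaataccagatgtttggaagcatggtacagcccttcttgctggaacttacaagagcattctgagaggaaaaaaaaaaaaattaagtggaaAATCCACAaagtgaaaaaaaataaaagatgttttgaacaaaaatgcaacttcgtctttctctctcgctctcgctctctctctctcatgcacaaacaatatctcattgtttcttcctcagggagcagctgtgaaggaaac

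The libraries of a group were not equally close. Of genes with at least 20 CPM in a library, 940 of 7988 (11.8%) differed by more than 2-fold between the day 4 libraries, 883 of them higher in replicate 2, against 73 of 7449 (0.98%) between the day 0 libraries. Replicate 1 over replicate 2 at day 4 also followed GC content, with a median log2 ratio of 0.48 in the lowest class and -0.90 in the highest. The 8 widest ratios at day 4 were mostly in genes with near copies. Beyond these 8, genes that are neither predicted nor pseudogenes had log2 ratios as wide as -3.02. On both days replicate 1 and replicate 2 also belonged to different series of library names, so replicate and series cannot be told apart here. The part of near copies, of GC content and of series in the gap was not tested. Rps12-ps3 had 40.4 and 729 CPM at day 4, against 1350.1 and 1257 CPM at day 0. The ferritin light chain gene Ftl1 had 29.2 and 315 CPM at day 4, against 305 and 396 CPM at day 0, and its copy Ftl1-ps1 had 643 and 2778 CPM at day 4, against 5539.9 and 4725 CPM at day 0. Ftl1 was not called (log2 fold change -1.03, adjusted p = 0.383, and -0.12 with the offset at an adjusted p of 0.91). Reads of such pairs may be split between them. The other 6 of these 8 genes, Rps2-ps6, Gm10359, Gm12671, Gm47283, Gm42418 and Pgam1-ps2, are likewise copies or predicted genes, and 5 of them were not called. Gm42418 had 11.3 and 134 CPM at day 4, against 918 and 1014 CPM at day 0 (log2 fold change -3.74, SE 1.11, adjusted p = 0.0188). It lies within the span of the ribosomal RNA CT010467.1 on the opposite strand, so that its reads may belong in part to that RNA. For Gm42418, the call was lost without day 0 replicate 1 or day 0 replicate 2 at an adjusted p of 0.0513 to 0.053.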

How the data were processed

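RNA of the 4 wild-type libraries, and of 6 knockout libraries that share the estimate of spread, was measured by sequencing. The deposited tables hold RSEM expected counts per gene with TPM, FPKM, length and effective length, per the file headers; the FPKM values were not used, and deposited TPM values entered alternatives only. Named without roles in the submitters' processing notes are RSEM, STAR, HOMER, Bowtie2, FastQC 0.11.5 and the build mm10. No source used here gives the strand setting, so overlapping and antisense genes are uncertain.

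Expected counts were rounded, genes filtered with filterByExpr, scaled by TMM and tested with edgeR 4.0.16 (quasi-likelihood, R 4.3.3) over the 5 groups of 10 libraries, with 5 residual degrees of freedom, and p-values were adjusted by Benjamini-Hochberg over the 19470 tested genes; an adjusted p under 0.05 is called. The script was tested on simulated counts. Alternatives used DESeq2 1.42.0, limma 3.58.1 on log2(TPM + pseudocount), other scalings and filters, a length and GC offset, a replicate block and leaving out each library. Depths were 40950959 to 42573015 expected counts per library, and counting intervals (95%) and floors of 3 counts cover counting error only. Lists and named genes were chosen with earlier results of these data known. Named were the 15 largest rises and falls, the 10 largest gains and losses in CPM, the 8 genes with the widest ratio between day 4 libraries, up to 6 genes near absent on a day, and, of 41 lists, the first 2 called members by CPM in the direction with more calls and the first in the other (the rule allowed 4 and 2, shortened for length); the other 22 lists are given by counts. Besides these, 9 genes are named, 6 of them after their values were seen. Gene coordinates are from GENCODE on mm10, and promoter windows from RefSeq on GRCm38.p6. The chromatin samples were not analysed here.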

Additional observations from a re-analysis of the deposited data

How the results depend on the processing

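With 2 libraries a group, the count of called genes was 10139 and ranged from 6504 (without day 0 replicate 1, 3721 higher and 2783 lower) to 10979 (without day 4 replicate 2) when 1 library was left out, the lone library being assumed to vary like the other groups. Calls higher then ranged from 3721 to 5643 and calls lower from 2783 to 5336. Against a fold of 1.5 (glmTreat) 2946 genes were lower, on log2(TPM + 1) 1487 and on log2(TPM + 0.1) 1464 were lower, and on the centred scale 3034 were higher. At a minimum of 1 CPM in place of 5, 87 genes were near absent at day 0 and 48 at day 4. With the replicate block the fit of all 10 libraries called 10357 genes and that of the 4 wild-type libraries 8780, against 7914 for those 4 without it. A block for the 2 series of library names, in which same-numbered wild-type libraries also fall together, called 11052 genes (5905 higher and 5147 lower). No label states a pairing, and with 2 libraries a group the numbers were not taken as pairs. Deviations of same-numbered libraries correlated by 0.113 between the days, by 0.134 to 0.51 between other groups that span both series, and by -0.18 to -0.035 with the double knockout, whose libraries are both of the first series. DESeq2 called 9727 genes and no filter 10828. The cause of these shifts was not tested. Over the 188 genes named, 3201 values under the alternatives kept direction and call, 271 lost the call, 37 gained it and 49 turned; of the list counts, 1010 stayed within 1.5 times, 120 moved and 67 turned, as follows, each with the members then called in the direction that led before.

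By library totals, the direction with more calls turned for fibroblast and feeder markers (1), integrins (6), heat shock proteins and chaperonin (20), unfolded protein response of the endoplasmic reticulum (7), mitotic kinases and kinetochore (5), G1 cyclins, CDK inhibitors and RB family (6), p53 targets (3), and the log2 fold change turned for Gm10359 (0.04). On log2(TPM + 1), the direction with more calls turned for fibroblast and feeder markers (0), integrins (1), tubulins, actins and tropomyosins (11), non-muscle and unconventional myosins (9), threonine, glycine and one-carbon metabolism (7), translation initiation and elongation factors (8), heat shock proteins and chaperonin (8), unfolded protein response of the endoplasmic reticulum (5), origin licensing and replication (7), mitotic kinases and kinetochore (2), G1 cyclins, CDK inhibitors and RB family (2), p53 targets (2), and the log2 fold change turned for Cct7 (0.02), Eif4a1 (0.01), Epcam (0.30), Hspa8 (0.30), Prdx1 (0.42), Ptma (0.03), Tuba1b (0.23), Tubb5 (0.16). On log2(TPM + 0.1) the same lists and genes turned with the same values, except integrins (2) and Epcam (0.31). With the offset, the direction with more calls turned for polycomb complexes (7), DNA methylation enzymes (5), TBX factors (2), mitochondrially encoded proteins (2), sterol synthesis and uptake (5), alternative splicing regulators (8), and the log2 fold change turned for Atp6v1b2 (-0.01), Canx (-0.32), Chd4 (-0.06), Epcam (0.07), Gm10359 (0.55), Gm47283 (0.20), Ireb2 (-0.34), Nedd4 (-0.33), Nsd1 (-0.60), Psme4 (-0.71), Ptch1 (-0.27), Ptma (0.16), Slc38a1 (-0.73), Slc38a2 (-0.20), Smarcc1 (-0.23), Sp1 (-0.12), Sp3 (-0.21), Suz12 (-0.38), Tex15 (-0.29), Tuba1b (0.03), Zfp106 (-0.30). On centred log2(TPM + 1), the direction with more calls turned for DNA methylation enzymes (6), KLF and SP factors (7), nuclear receptors (5), surface antigens of stem cells (4), collagens (2), laminins, nidogens and perlecan (6), glucose transport, glycolysis and lactate (6), antigen presentation and interferon genes (9), potassium and calcium channels (4), and the log2 fold change turned for Dnajc13 (-0.03), Gm12671 (-0.26), Setd2 (-0.09), Tex15 (-0.09). With no filter, the direction with more calls turned for integrins (7), glucose transport, glycolysis and lactate (7). Under RLE size factors, the direction with more calls turned for glucose transport, glycolysis and lactate (6). With the replicate block over the 4 WT libraries, the direction with more calls turned for glucose transport, glycolysis and lactate (4), and the log2 fold change turned for Gm12671 (-0.27). With a block for the 2 series of library names, the direction with more calls turned for glucose transport, glycolysis and lactate (6), sterol synthesis and uptake (9). Under DESeq2, the direction with more calls turned for glucose transport, glycolysis and lactate (6). With the 4 WT libraries alone, the direction with more calls turned for mitochondrially encoded proteins (1). Under glmTreat, fold 1.5, the direction with more calls turned for p53 targets (2). Leaving out 1 library at a time, values ranged over these limits where a direction turned (members called in the direction with more calls, or log2 fold change): fibroblast and feeder markers 0 to 3, bHLH and ID factors 11 to 17, collagens 10 to 16, integrins 3 to 8, glucose transport, glycolysis and lactate 4 to 8, mitochondrially encoded proteins 0 to 6, unfolded protein response of the endoplasmic reticulum 7 to 10, p53 targets 4 to 9, Gm10359 -3.41 to 1.00, Gm12671 -2.47 to 1.49, Gm17134 -11.95 to 2.32, Gm45507 -12.12 to 3.70, Pgam1-ps2 -0.06 to 4.78.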
